A study of Arabidopsis thaliana with 18 samples.

Results

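The cells described here were GFP-positive cells sorted from roots of the Arabidopsis thaliana tcx2 mutant that carried the CYCD6:GFP reporter. They make up 3 of 12 libraries of sorted cells and 3 of 18 samples in the series, and they were chosen by their label. All sorted cells came from 5-day-old tcx2 seedlings, in 4 groups of 3 replicates that differed in the reporter. Besides CYCD6:GFP, the reporters were WOX5:GFP, FEZ:FEZ-GFP and TMO5:3xGFP. The remaining 6 samples were whole root tips of tcx2 (3) and wild type (WT, 3), which were tabulated as 1 FPKM value per genotype and serve here only for levels. TCX2 encodes a transcription factor with a CXC DNA-binding domain. The methods name a knockdown and a knockout tcx2 allele for the reporter lines without saying which line carried which, so a difference of allele and a difference of cell population cannot be told apart. Every sorted population was mutant, and sorted WT cells were not used here, so the comparisons below are between cell populations within tcx2 and say nothing of the effect of the mutation. The question was which transcripts set the CYCD6:GFP cells apart from the other populations of the same mutant.

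CYCD6;1 is a D-type cyclin, a partner of cyclin-dependent kinases at the entry into the cell cycle. In the Arabidopsis root it is known as a target of the transcription factors SHORT-ROOT (SHR) and SCARECROW (SCR), and its promoter is active in the cortex-endodermis initial daughter, whose asymmetric division gives rise to the cortex and the endodermis. Of the other reporters, in WT WOX5 marks the quiescent center (QC) and TMO5 marks xylem precursors. FEZ there marks initials that form epidermis and lateral root cap. The paper reports wider domains for all of these reporters in the mutant. There the CYCD6:GFP signal reached endodermis and cortex, and the WOX5 signal reached the cortex-endodermis initials. The FEZ signal reached columella stem cells, and the TMO5 signal reached procambial cells. Whether the sorted populations shared cell types was not tested. The CYCD6:GFP reporter reads the activity of a promoter. GFP also outlasts the transcript that gives rise to it, so the sort collects cells that are fluorescent, whichever cells these are in the mutant.

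The promoter region of CYCD6;1 is shown because the sort rests on it. CYCD6;1 (AT4G03270) lies on chromosome 4 from 1431844 to 1433861, and the 250 bases upstream of its annotated start are chr4:1433862-1434111 in TAIR10.1, minus strand. The promoter fragment used in the reporter was not read here, and this window is the genome's own sequence, from the RefSeq assembly.
CYCD6;1 upstream: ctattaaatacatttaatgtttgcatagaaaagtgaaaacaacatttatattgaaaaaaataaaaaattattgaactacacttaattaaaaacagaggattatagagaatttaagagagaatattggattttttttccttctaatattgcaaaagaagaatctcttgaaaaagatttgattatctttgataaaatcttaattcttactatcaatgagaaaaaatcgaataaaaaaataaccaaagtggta

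The label was first checked against the gene that gives the reporter its name. CYCD6;1 was listed at 0 FPKM in each of the 3 CYCD6:GFP libraries. Among the other 9 libraries it was above 0 in 3, at 0.315 FPKM in replicate 2 labelled FEZ:FEZ-GFP and at 0.125 and 0.136 FPKM in replicates 2 and 3 labelled TMO5:3xGFP. The transcript was therefore at or near 0 in every population, and in the whole root tip it was 0.486 FPKM in tcx2 and 0.425 FPKM in WT. On the log2(FPKM + 1) scale CYCD6;1 differed by -0.08 between the CYCD6:GFP libraries and the mean of the other populations (exact two-sided permutation test over 220 choices of 3 libraries, p = 0.632, smallest possible p = 0.00455). At these levels the gene could not serve as a check of the label.

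TCX2 (AT4G14770), the mutated gene, was low throughout. It was at 0.164, 0.391 and 0.0732 FPKM in the CYCD6:GFP libraries, between 0.271 and 0.722 FPKM in those labelled FEZ:FEZ-GFP, between 0 and 0.402 FPKM in those labelled TMO5:3xGFP and between 0 and 0.677 FPKM in those labelled WOX5:GFP. The groups overlapped, and the log2 difference was -0.14 (exact two-sided permutation test, p = 0.464). In whole root tips TCX2 was 0.303 FPKM in tcx2 and 1.29 FPKM in WT.

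The other reporter genes were nearly silent in the CYCD6:GFP libraries. FEZ, a NAC factor of the root cap initials, was listed at 0, 0 and 0.0734 FPKM in them, against 2.90, 0.949 and 0.347 FPKM in the libraries labelled FEZ:FEZ-GFP. TMO5 was at 0.0362, 0.130 and 0 FPKM, and WOX5 was listed at 0 in all 3. Libraries of 2 of the populations went against their labels for these genes. WOX5 was listed at 0 in all 3 libraries labelled WOX5:GFP and stood at 1.49, 0.997 and 0 FPKM in those labelled TMO5:3xGFP, whereas TMO5 stood at 3.75, 0.391 and 0.782 FPKM in the libraries labelled WOX5:GFP and at 0, 0.206 and 0 FPKM in those labelled TMO5:3xGFP. Whether these labels were exchanged was not tested. The mean of the other 3 populations does not depend on which of them carries which label, but a difference from a single population does, and those are given below under the labels as deposited.

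FPKM values, which are scaled to transcript length and mapped reads, summed to 644635, 705646 and 632605 in the CYCD6:GFP libraries, and 14878 to 17712 of 33560 listed genes were above 0, against 15831 to 22170 in the other 9. Ribosomal RNA took 80.2% to 85.9% of the sum, and nuclear genes without it were left with 40428, 60848 and 89046 FPKM in CYCD6:GFP replicates 1, 2 and 3, the lowest and the highest of all 12 libraries among them. The median tested gene stood at 0.93, 1.20 and 1.68 on the log2 scale, against 1.24 to 1.77 in the other 9 libraries. The replicates of this population thus differed in scale from each other as widely as all populations did. Read depth is unknown, so no counting error can be given. In these bulk measurements fewer cells of a type and less RNA per cell cannot be told apart.

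The marker lists gave the cells no clear ground tissue profile. Of 12 genes of ground tissue patterning, none passed the filter for testing (at least 1 FPKM in at least 3 libraries). SHR, which moves from the stele into the endodermis, had a value of 0 in all 3 CYCD6:GFP libraries and reached 3.50 FPKM in replicate 1 labelled WOX5:GFP. SCR, the partner of SHR in the endodermis and its initials, was above 0 in each CYCD6:GFP library at 0.413, 0.894 and 0.508 FPKM, against 0.794 to 1.00 FPKM in the libraries labelled TMO5:3xGFP, 0.0474 to 0.503 FPKM in those labelled FEZ:FEZ-GFP and 0 to 0.106 FPKM in those labelled WOX5:GFP. SCR was thus higher in every CYCD6:GFP library than in any labelled WOX5:GFP and overlapped the other ranges, at values near or under 1 FPKM. MGP stood at 0.727, 1.12 and 0 FPKM in CYCD6:GFP libraries and at 0 to 0.396 FPKM in the others. Mean FPKM was higher in CYCD6:GFP libraries than in the others for SCR, MGP, NUC, BIB and SCZ. It was lower for SHR, JKD, SCL3, SCL23, RBR1 and CYCD6;1, and about equal for MYB36. The summed FPKM of the 12 genes was 3.72, 5.05 and 1.81 in CYCD6:GFP libraries and 1.15 to 8.26 in the others, so the ranges overlapped.

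Genes of differentiated ground tissue were mixed. CASP1, CASP2, CASP4 and CASP5 encode scaffold proteins of the Casparian strip, the endodermal barrier, and were listed at 0 in all 3 CYCD6:GFP libraries. They were low elsewhere too, with a median of 0 over the other 9 libraries and maxima of 0.47, 1.91, 0.64 and 0.042 FPKM. Of 11 Casparian strip genes only RBOHF and EXO70A1, which act in many tissues, passed the filter, with log2 differences of 0.39 and 0.34 and no call. Of 13 suberin genes 8 were listed at 0 in all CYCD6:GFP libraries. Of these 8, only FAR5 exceeded 0.69 FPKM in any other library, and it was at 0 in all 3 labelled WOX5:GFP. No share over all genes was taken, so these zeros do not set the CYCD6:GFP cells apart. The 1 suberin gene tested, KCS20, a fatty acid elongase gene, differed by 0.87 ± 0.39 (SE) on the log2 scale (limma adjusted p = 0.424). Cortex markers summed to 22.8, 23.8 and 9.66 FPKM in CYCD6:GFP libraries and to 3.38 to 23.0 FPKM in the others. Most of this sum was THAS1, the thalianol synthase gene of triterpene metabolism, which stood at 15.9, 17.4 and 8.17 FPKM in CYCD6:GFP libraries, at 2.59 to 7.93 FPKM in those labelled FEZ:FEZ-GFP, at 1.53 to 2.10 FPKM in those labelled TMO5:3xGFP and at 6.93, 14.5 and 5.67 FPKM in those labelled WOX5:GFP. Its values lay above both the FEZ:FEZ-GFP and the TMO5:3xGFP ranges and overlapped the WOX5:GFP range, and its log2 difference of 1.38 ± 0.41 was not called (limma adjusted p = 0.180). The CYCD6:GFP sums thus rested mainly on THAS1, and whether THAS1 stood for cortex here was not tested. CO2, of the same list, was at 0.565, 0.482 and 0 FPKM in CYCD6:GFP libraries and at 0 to 0.534 FPKM in the others. The remaining tested markers differed by 0.22 (CYP708A2), -0.17 (AT1G09750), -0.21 (C/VIF2) and -0.58 (MRN1) on the log2 scale, with no call. AT1G09750 and MRN1 reached 1 FPKM in no CYCD6:GFP library. The median over the 5 cortex markers tested was -0.17, beside -0.10 over all tested genes. Its sign was not stable: it changed under 8 of 22 alternatives, among them quantile normalization (0.07) and leaving out CYCD6:GFP replicate 3 (0.10). The plot of marker lists shows these sums by library.

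**Figure D1:**
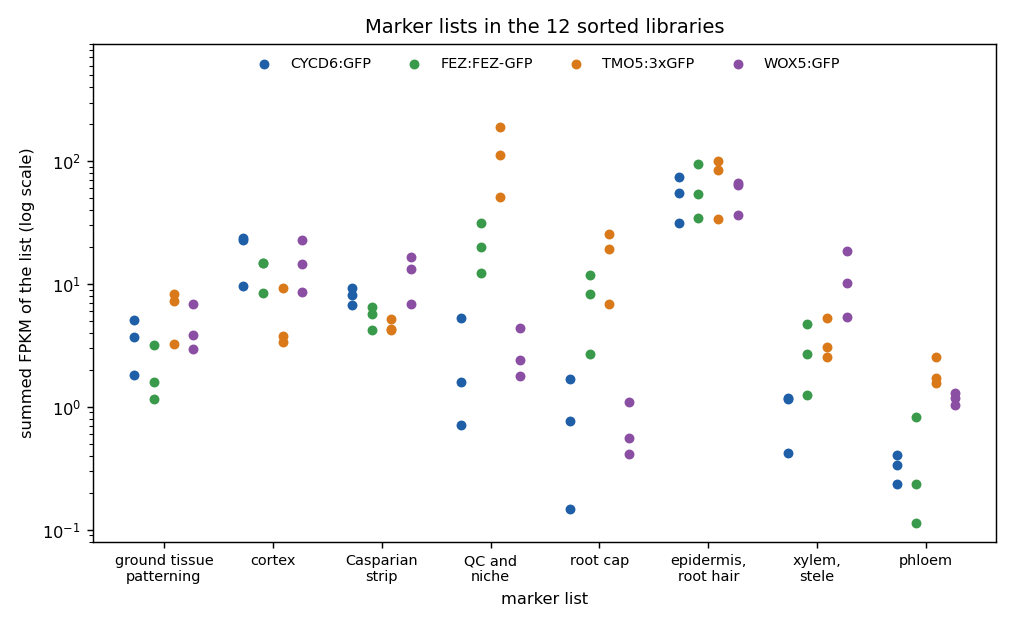
Summed FPKM of 8 marker lists (vertical axis, log scale) in the 3 libraries of each population, 1 point a library, with CYCD6:GFP at the left of each list. The niche list lies at 0.717 to 5.27 FPKM in CYCD6:GFP libraries and at 50.7 to 190 FPKM in those labelled TMO5:3xGFP, and the ground tissue ranges overlap.

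Across 9979 tested genes, 20 were called lower in CYCD6:GFP cells than in the mean of the other 3 populations, which is 0.2% of those tested, and 0 were called higher (0%; limma on log2(FPKM + 1), Benjamini-Hochberg adjusted p under 0.05 and a fold change over 2). By the same fold and a p under 0.05 before adjustment, 402 genes were lower and 69 higher, and the lowest adjusted p among the higher genes was 0.0820. The median difference over all tested genes was -0.10 on the log2 scale, and 59.3% of genes lay below 0. All 3 CYCD6:GFP values lay below all 9 others for 130 genes (1.3%) and above them for 15 (0.15%). The number of calls, more than the differences, depended on the replicates used. Without CYCD6:GFP replicate 2 limma called none, at 423 lower and 125 higher genes by the unadjusted rule, while the differences of the 20 genes lay between -3.03 and -1.51. Without replicate 1 the count was 7 and without replicate 3 it was 11. Of the 20 genes, 13 were called under 11 or more of 22 alternatives and 7 under fewer, and the count is given beside each of these 7. Rescaled to the FPKM sum of nuclear genes without ribosomal RNA, the same libraries gave 31 lower and 5 higher calls. Of all tested genes 1609 (16.1%) reached 1 FPKM in no CYCD6:GFP library and so passed the filter through the other populations alone. Among the 20 called genes there were 12 such: RGF3, CYP79B2, AT1G78520, AT2G43535, AT2G43480, OEP16-1, AT4G35030, AT5G60520, SEX1, MYB77, IAA33 and ENODL16. The filter itself favoured the lower direction for these 12, so their p-values and call counts are a description and not support.

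**Figure D2:**
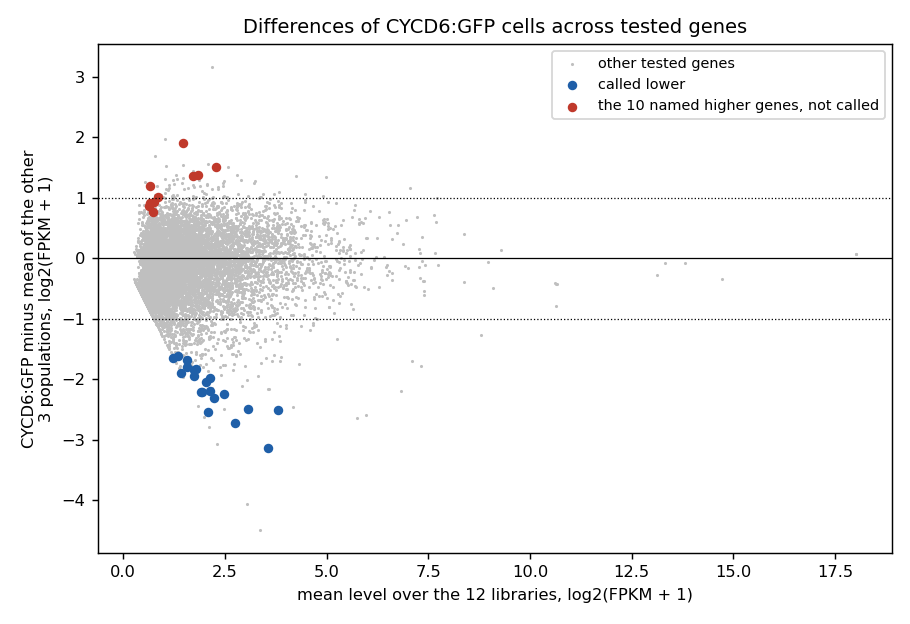
Difference of CYCD6:GFP libraries from the mean of the other 3 populations (vertical axis) against mean level over 12 libraries (horizontal axis), both on log2(FPKM + 1), 1 point a tested gene, with dotted lines at a 2-fold change. The 20 called genes run from -3.14 to -1.61, and the 10 named higher genes, which were not called, from 0.77 to 1.91.

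The called genes were of several kinds. By annotated product or known role they included a meristem peptide gene (RGF3), genes of auxin response and indole metabolism (IAA4, IAA33, MYB77 and CYP79B2), genes of the cell wall and cell surface (TCH4, FLA8, ENODL16 and AT1G78520), 2 of late embryogenesis abundant (LEA) or LEA-like proteins (AT3G53040 and AT5G60520), 2 of plastid proteins (SEX1 and OEP16-1), and genes annotated as a metal transport protein, a WD40 repeat protein, a knottin, a peroxidase and a protein kinase. ATMG00150, an open reading frame of the mitochondrial genome, had the largest difference, and AT3G51750 is annotated as an uncharacterized protein. The map of called genes by library shows their levels.

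**Figure D3:**
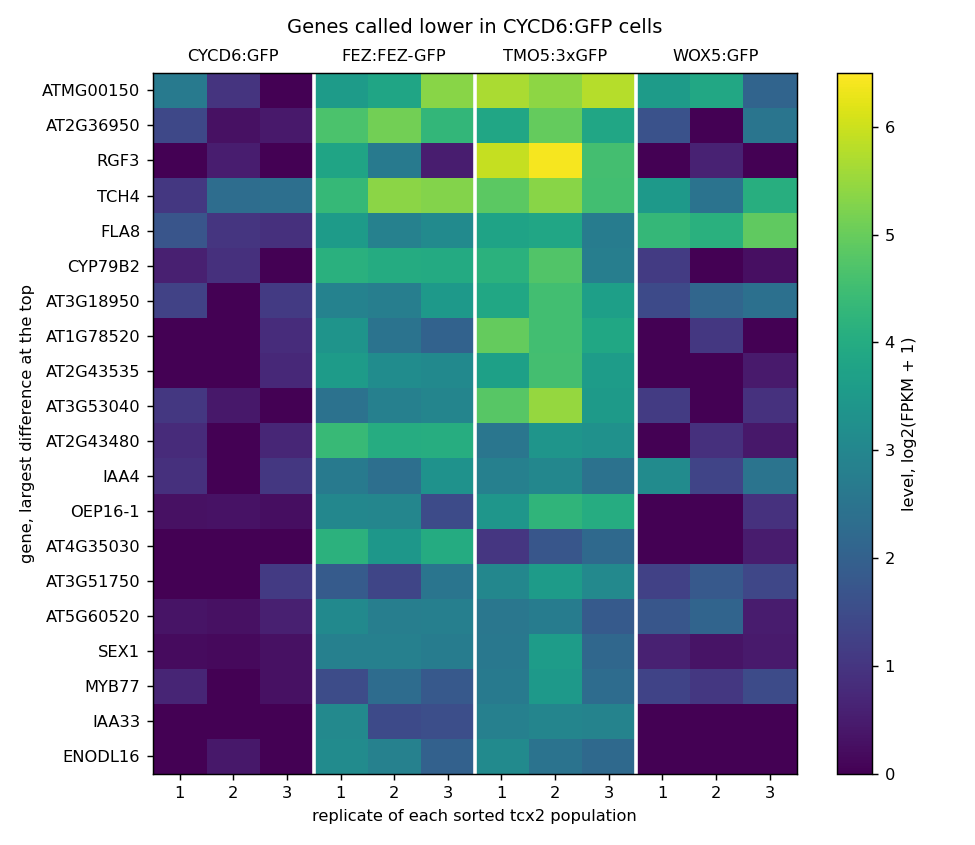
Level of the 20 called genes (rows, largest difference at the top) in 12 libraries (columns, CYCD6:GFP at the left), as log2(FPKM + 1) from dark (0) to bright. The rows are dark in CYCD6:GFP libraries and bright in those labelled FEZ:FEZ-GFP and TMO5:3xGFP, and many are also dark in those labelled WOX5:GFP, among them IAA33, which was listed at 0 in both.

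FLA8 (AT2G45470, chromosome 2, 18742477 to 18744322) encodes a fasciclin-like arabinogalactan protein of the cell surface and was the 1 called gene that was also called against the libraries labelled WOX5:GFP. It stood at 2.28, 1.01 and 0.869 FPKM in CYCD6:GFP libraries, against 10.95, 6.30 and 7.60 FPKM in those labelled FEZ:FEZ-GFP, 12.6, 13.3 and 5.64 FPKM in those labelled TMO5:3xGFP and 18.95, 16.5 and 29.3 FPKM in those labelled WOX5:GFP. No CYCD6:GFP value reached the lowest of the other 9. The log2 difference was -2.49 ± 0.39 (SE, limma adjusted p = 0.0151), with a 95% interval of -3.30 to -1.68. In whole root tips FLA8 was abundant, at 135 FPKM in tcx2 and 131 FPKM in WT.

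TCH4 (AT5G57560, chromosome 5, 23307006 to 23308680), a xyloglucan endotransglucosylase/hydrolase of the cell wall that is induced by touch, also lay below all other libraries. Its values were 1.07, 3.996 and 4.20 FPKM in CYCD6:GFP libraries, against 19.3 to 40.4 FPKM in those labelled FEZ:FEZ-GFP, 22.3 to 39.3 FPKM in those labelled TMO5:3xGFP and 10.2, 4.57 and 15.8 FPKM in those labelled WOX5:GFP. The log2 difference was -2.51 ± 0.44 (limma adjusted p = 0.0151). The gap was narrow, since the highest CYCD6:GFP value, in replicate 3, stood just below replicate 2 labelled WOX5:GFP. Of the other wall and surface genes, ENODL16, an early nodulin-like protein gene, was listed at 0, 0.345 and 0 FPKM in CYCD6:GFP libraries and at 0 in all 3 labelled WOX5:GFP, and AT1G78520, which encodes an X8 domain protein, at 0, 0 and 0.768 FPKM in CYCD6:GFP libraries. ENODL16 was called under 5 of 22 alternatives. Both were above 3 FPKM in every library labelled FEZ:FEZ-GFP or TMO5:3xGFP, from 3.02 to 7.78 FPKM for ENODL16 and from 3.14 to 30.3 FPKM for AT1G78520.

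Among genes of auxin biology, most Aux/IAA proteins, though not every member of the family, are repressors of the auxin response that are broken down when auxin is perceived. IAA4 (AT5G43700, also ATAUX2-11, chromosome 5, 17550179 to 17551715) stood at 0.868, 0 and 1.07 FPKM in CYCD6:GFP libraries, at 4.16 to 8.92 FPKM in those labelled FEZ:FEZ-GFP, at 4.51 to 7.07 FPKM in those labelled TMO5:3xGFP and at 7.78, 1.53 and 4.69 FPKM in those labelled WOX5:GFP. It lay below all 9 others, at a log2 difference of -1.97 ± 0.40 (limma adjusted p = 0.0469). Under the alternatives it was called in 6 of 22. IAA33 (AT5G57420, chromosome 5, 23269914 to 23271092), of the same family, stood at 0 in each of the CYCD6:GFP libraries and of those labelled WOX5:GFP, and at 1.75 to 7.29 FPKM in those labelled FEZ:FEZ-GFP and 6.08 to 6.77 FPKM in those labelled TMO5:3xGFP, and was called under 7 of 22. MYB77 (AT3G50060, chromosome 3, 18557607 to 18559326), a transcription factor that acts with auxin response factors in lateral root formation, stood at 0.588, 0 and 0.224 FPKM in CYCD6:GFP libraries and at 1.06 to 10.4 FPKM in the other 9, at a log2 difference of -1.67 ± 0.35 (limma adjusted p = 0.0475). It was called under 5 of the 21 alternatives that tested it. CYP79B2 (AT4G39950, chromosome 4, 18525042 to 18527602) turns tryptophan into indole-3-acetaldoxime, a precursor of indole glucosinolates. It was at 0.483, 0.865 and 0 FPKM in CYCD6:GFP libraries and at 1.20, 0 and 0.198 FPKM in those labelled WOX5:GFP, against 14.8 to 16.5 FPKM in those labelled FEZ:FEZ-GFP and 5.89 to 25.7 FPKM in those labelled TMO5:3xGFP.

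RGF3 (AT2G04025, chromosome 2, 1276683 to 1277761) encodes a secreted peptide of the root meristem growth factor family, which maintains the meristem through PLETHORA transcription factors. It was at 0, 0.447 and 0 FPKM in CYCD6:GFP libraries and at 0, 0.535 and 0 FPKM in those labelled WOX5:GFP, against 12.97, 5.41 and 0.435 FPKM in those labelled FEZ:FEZ-GFP and 59.7, 84.4 and 22.7 FPKM in those labelled TMO5:3xGFP. The log2 difference was -2.55 ± 0.52 (limma adjusted p = 0.0469), and RGF3 was called under 7 of 22 alternatives. It was -5.46 against the libraries labelled TMO5:3xGFP alone and -0.03 against those labelled WOX5:GFP. RGF3 was the 1 called gene among 11 markers of the QC and stem cell niche, of which 6 were tested. All 6 lay below 0, at a median of -1.42 on the log2 scale, beside -0.10 for all tested genes, but 5 of the 6 reached 1 FPKM in no CYCD6:GFP library and passed the filter through the other populations, so their direction was fixed by the filter. Besides RGF3, the highest of them by mean level were PLT3 at 0.621, 2.81 and 0.717 FPKM in CYCD6:GFP libraries, RGF2 at 0 in all 3 and PLT1 at 0.249, 0.561 and 0 FPKM. In the libraries labelled TMO5:3xGFP these genes reached 41.7, 27.9 and 12.5 FPKM.

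The called genes of plastid and of LEA or LEA-like proteins were grouped by annotated product after their values were seen. SEX1 (AT1G10760, chromosome 1, 3580830 to 3590928), the glucan water dikinase that primes starch for breakdown, stood at 0.137, 0.124 and 0.227 FPKM in CYCD6:GFP libraries and at 0.502, 0.262 and 0.389 FPKM in those labelled WOX5:GFP, against 5.63 to 6.11 FPKM in those labelled FEZ:FEZ-GFP and 3.50 to 11.1 FPKM in those labelled TMO5:3xGFP. Its log2 difference was -1.80 ± 0.34 (limma adjusted p = 0.0246), and no CYCD6:GFP value reached any other. SEX1 passed the filter through the other populations alone, and its gap to the libraries labelled WOX5:GFP was small (0.227 against 0.262 FPKM). OEP16-1, a channel protein of the outer plastid envelope, was between 0.173 and 0.251 FPKM in CYCD6:GFP libraries and between 0 and 17.99 FPKM in the other 9, and was called under 10 of 22 alternatives. The LEA protein gene AT3G53040 was at 0 to 1.07 FPKM in CYCD6:GFP libraries, 0 to 1.17 FPKM in those labelled WOX5:GFP and 4.43 to 43.7 FPKM in the remaining 6. AT5G60520, a LEA-like protein gene, was at 0.227 to 0.482 FPKM in CYCD6:GFP libraries and 0.414 to 3.26 FPKM in those labelled WOX5:GFP, so its ranges there overlapped, and it was called under 7 of 22 alternatives.

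Of the remaining called genes, ATMG00150 was at 5.26, 0.981 and 0 FPKM in CYCD6:GFP libraries and at 3.26 to 53.4 FPKM in the other 9, at a log2 difference of -3.14 ± 0.53 (limma adjusted p = 0.0151). CYCD6:GFP replicate 1 lay within the range of the others, and replicates 2 and 3 below it. AT4G35030, a protein kinase gene, was listed at 0 in each CYCD6:GFP library and was highest in those labelled FEZ:FEZ-GFP, at 9.92 to 17.2 FPKM. AT2G36950, AT2G43535 and AT2G43480, annotated as a metal transport protein, a knottin and a peroxidase, had no CYCD6:GFP value above 1.66, 0.691 and 0.743 FPKM. AT3G18950, the WD40 repeat gene, and AT3G51750 lay below all other libraries, with CYCD6:GFP values up to 1.43 and 1.14 FPKM beside lowest other values of 1.76 and 1.40 FPKM. In all, 7 of the 20 called genes lay below all 9 others in every CYCD6:GFP library: TCH4, FLA8, AT3G18950, IAA4, AT3G51750, SEX1 and MYB77. Of these, SEX1 and MYB77 reached 1 FPKM in no CYCD6:GFP library.

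Against single populations, the called genes divided the libraries unevenly. Of the 20, 20 were also called lower than in the libraries labelled TMO5:3xGFP (3.68% of all tested genes were), 15 lower than in those labelled FEZ:FEZ-GFP (0.531%) and 1, FLA8, lower than in those labelled WOX5:GFP (0.12%). These comparisons share the CYCD6:GFP libraries with the one that chose the genes, so the counts are a description. The median log2 differences of the 20 were -2.95 against TMO5:3xGFP, -2.42 against FEZ:FEZ-GFP and -0.22 against WOX5:GFP, beside -0.19, -0.06 and -0.09 over all tested genes. The CYCD6:GFP range overlapped the range labelled WOX5:GFP for 13 of the 20 genes, that labelled FEZ:FEZ-GFP for 1 and that labelled TMO5:3xGFP for 0. No share over all tested genes was taken, and the 20 were chosen as low in the same libraries. Whether these overlaps are unusual is therefore not known. FLA8 differed from the libraries labelled WOX5:GFP by -3.25 ± 0.48 (limma adjusted p = 0.00554) and from those labelled TMO5:3xGFP by -2.24 ± 0.48 (limma adjusted p = 0.00972), and the difference of -1.98 ± 0.48 from those labelled FEZ:FEZ-GFP missed the threshold (limma adjusted p = 0.0678). No gene was called against all 3. In direct comparisons over all tested genes, 43 genes (0.431%) were called higher and 367 lower than in libraries labelled TMO5:3xGFP, 1 (0.01%) higher and 53 lower than in those labelled FEZ:FEZ-GFP, and 3 (0.0301%) higher and 12 lower than in those labelled WOX5:GFP.

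**Figure D4:**
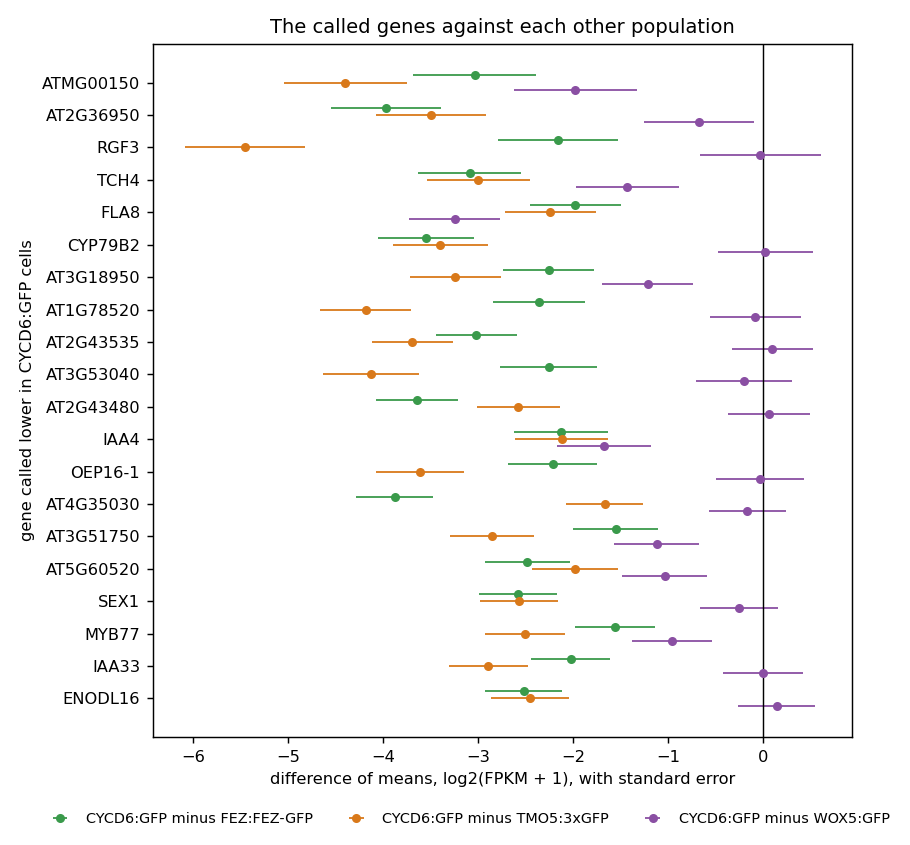
Difference of CYCD6:GFP libraries from each other population for the 20 called genes (horizontal axis, log2(FPKM + 1)), with the standard error of the limma fit as bars and n = 3 libraries a population. The points against the populations labelled FEZ:FEZ-GFP and TMO5:3xGFP lie between -5.46 and -1.55, and those against the one labelled WOX5:GFP lie between -3.25 and 0.14.

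No gene was called higher in CYCD6:GFP cells. The 10 genes with all 3 values above the 9 others and the largest differences are given as a description, and none of them passed the adjusted threshold. After rescaling to nuclear genes AT4G30660 and AT4G28652 were called (limma adjusted p = 0.0498 and 0.0356), and with array weights 6 of the 10 were. AT4G30660, annotated as a low temperature and salt responsive protein, stood at 4.33, 4.55 and 12.8 FPKM in CYCD6:GFP libraries and at 0 to 3.21 FPKM in the others, at a log2 difference of 1.91 ± 0.46 (limma adjusted p = 0.0953). AT5G12880, a proline-rich family protein gene, was the most even of them, at 9.54, 9.77 and 9.84 FPKM in CYCD6:GFP libraries against 0 to 6.09 FPKM in the others (log2 difference 1.51 ± 0.45, limma adjusted p = 0.184). AT4G28652, annotated as a non-coding RNA, stood at 5.16, 5.09 and 9.30 FPKM against 0.464 to 4.18 FPKM, and AT2G17280, a phosphoglycerate mutase family gene, at 3.28, 6.37 and 8.54 FPKM against 0.659 to 2.96 FPKM. The UDP-glycosyltransferase gene AT3G46690 was at 2.47, 2.24 and 1.22 FPKM in CYCD6:GFP libraries and reached at most 0.778 FPKM elsewhere. The other 5 were AT1G61740, AT5G20580, AT1G34040, AT1G49030 and AT2G13970, with log2 differences of 0.77 to 1.02 and CYCD6:GFP values of 1.06 to 2.65 FPKM.

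Cell cycle genes were measured because CYCD6;1 acts in division. None of 31 cyclin and cyclin-dependent kinase (CDK) genes was called, of 10 that were tested. Their median difference was -0.59 on the log2 scale, beside -0.10 for all tested genes. Below 0 lay 8 of the 10, beside 59.3% of all tested genes, but 6 of the 10 reached 1 FPKM in no CYCD6:GFP library. CDKA;1, the main CDK of the plant cell cycle, stood at 0.998, 3.46 and 2.74 FPKM in CYCD6:GFP libraries and at 0.575 to 5.45 FPKM in the others (log2 difference 0.20 ± 0.39, limma adjusted p = 0.921). CYCD2;1, another D-type cyclin gene, was at 1.36, 3.74 and 1.67 FPKM against 0.18 to 1.69 FPKM, a log2 difference of 0.51 ± 0.33. CYCB2;3, a B-type cyclin gene of mitosis, was at 0.441, 0 and 0 FPKM in CYCD6:GFP libraries, 2.03 to 3.02 FPKM in those labelled FEZ:FEZ-GFP and 0 to 1.99 FPKM in the rest, at a log2 difference of -1.01 ± 0.34 (limma adjusted p = 0.246). Of 7 cyclin-kinase inhibitor genes tested, none was called, and 3 reached 1 FPKM in no CYCD6:GFP library. Their median of 0.05 had no stable sign: it fell below 0 under 11 of 21 alternatives, among them rescaling to nuclear genes (-0.02) and leaving out CYCD6:GFP replicate 1 (-0.16) or 3 (-0.44). SIM, an inhibitor tied to endoreduplication, stood at 0.761, 4.18 and 9.35 FPKM in CYCD6:GFP libraries, a spread wider than that of all 9 others (0.839 to 4.37 FPKM), and KRP7 at 0.453, 0.266 and 0 FPKM against 0.537 to 6.19 FPKM, below all others but not called (log2 difference -1.29 ± 0.32, limma adjusted p = 0.109).

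DNA replication genes were likewise not called. Of 14 genes 11 were tested, and 10 of these lay below 0, beside 59.3% of all tested genes. The median log2 difference of the 11 was -0.76, while 4 reached 1 FPKM in no CYCD6:GFP library. TSO2, a small subunit of ribonucleotide reductase, was at 0.423, 1.51 and 0 FPKM in CYCD6:GFP libraries and at 0.644 to 8.42 FPKM in the others (log2 difference -1.34 ± 0.41, limma adjusted p = 0.202). PCNA2, a sliding clamp of the replication fork, was listed at 0 in each CYCD6:GFP library and above 0 in all 9 others, at 0.327 to 7.13 FPKM, with no call (limma adjusted p = 0.117). The licensing factor gene CDT1A was at 0.538, 2.02 and 4.06 FPKM in CYCD6:GFP libraries and at 0.404 to 3.96 FPKM in the others, a log2 difference of 0.06 ± 0.37.

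Genes annotated as core histones had the most uniform direction among lists with at least 10 tested members. Transcripts of many histone genes accumulate in S phase, but the list also holds variants such as HTA9, for which this need not hold. It also holds LEC1, a transcription factor gene, which was not tested and counts only in the sum. All 34 tested members lay below 0, beside 59.3% of all tested genes, at a median log2 difference of -0.97. Of the 34, 20 had an unadjusted p under 0.05, beside 9.09% of all tested genes, but none was called. Only 2 of the 34 reached 1 FPKM in no CYCD6:GFP library, so the filter did not fix this direction for the rest. Summed over the 47 listed members, histone FPKM was 66.4, 90.7 and 104 in CYCD6:GFP libraries, 365, 210 and 134 in those labelled FEZ:FEZ-GFP, 225, 398 and 214 in those labelled TMO5:3xGFP and 142, 79.6 and 156 in those labelled WOX5:GFP. The CYCD6:GFP sums were below all others but replicate 2 labelled WOX5:GFP. AT5G65360, a histone H3 gene, was at 1.46, 10.7 and 3.99 FPKM in CYCD6:GFP libraries and at 4.55 to 44.6 FPKM in the others (log2 difference -1.70 ± 0.50, limma adjusted p = 0.184). The H3 gene AT5G10400 was at 1.83, 3.23 and 1.56 FPKM against 0.484 to 29.2 FPKM. AT1G09200, second by mean level, was at 3.34, 7.56 and 12.6 FPKM against 3.68 to 33.8 FPKM (log2 difference -0.93 ± 0.46, limma adjusted p = 0.475). HTB4 differed by -1.15 ± 0.53, and some members lay near 0, such as HTA10 at -0.03 and AT4G40040 at -0.12. Histone genes are near-identical copies, and how reads shared between them were assigned is not given in the sources used here, so values of single members are uncertain. Leaving out each CYCD6:GFP replicate in turn gave a median of -0.95 to -0.86. The members were picked by annotated product, and they are not independent of each other.

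**Figure D5:**
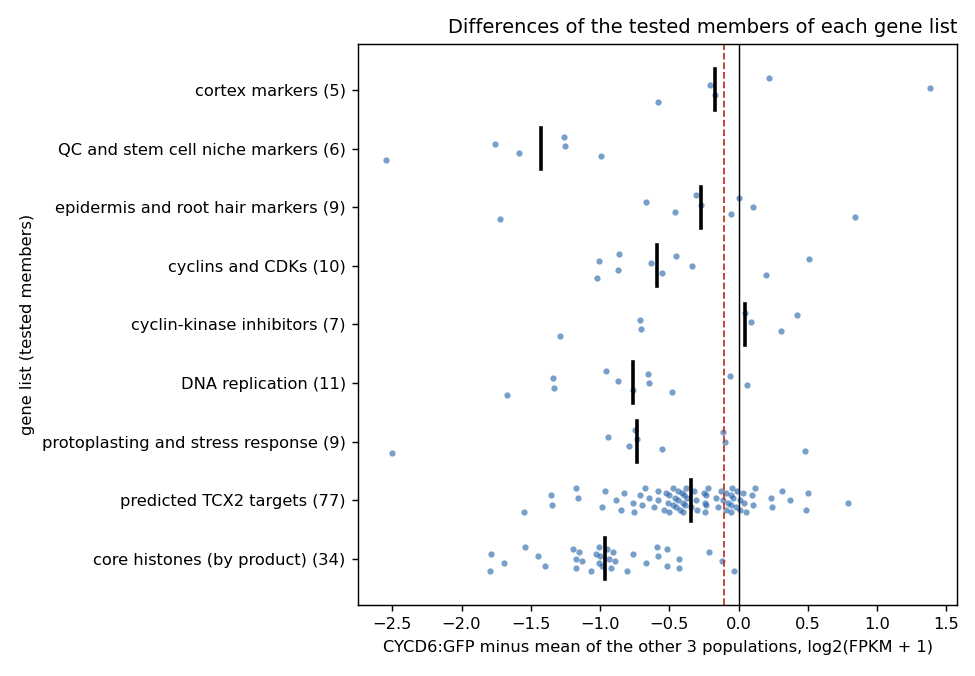
Difference of CYCD6:GFP libraries from the mean of the other 3 populations for each tested member (point) of 9 gene lists with at least 5 tested members, on log2(FPKM + 1). Black bars are list medians and the dashed line is the median of all tested genes (-0.10). All 34 histone genes lie below 0, and cyclin-kinase inhibitors straddle it with a median of 0.05, which was -0.44 without CYCD6:GFP replicate 3 and -0.02 after rescaling to nuclear genes.

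Marker lists of other cell types differed in how they stood in the CYCD6:GFP libraries. Root cap markers summed to 1.69, 0.766 and 0.149 FPKM in them, against 2.68 to 25.4 FPKM in the libraries labelled FEZ:FEZ-GFP and TMO5:3xGFP and 0.417 to 1.10 FPKM in those labelled WOX5:GFP, which they overlapped. SMB, a NAC factor of root cap maturation, was listed at 0 in each CYCD6:GFP library and was not called (log2 difference -1.55 ± 0.33, limma adjusted p = 0.0579). It passed the filter through the other populations alone, which favoured this direction. BRN1, the other of 2 tested root cap markers, was at 1.42, 0 and 0 FPKM in CYCD6:GFP libraries and at 0 in those labelled WOX5:GFP. In the remaining 6 libraries BRN1 was at 0.267 to 5.69 FPKM (log2 difference -0.65 ± 0.39, limma adjusted p = 0.578). Xylem and stele markers summed to 1.16, 1.18 and 0.418 FPKM in CYCD6:GFP libraries, just below all 9 others (1.25 to 18.7 FPKM). Only 2 of these 18 markers were tested, and neither reached 1 FPKM in any CYCD6:GFP library, so the sums rest on values near 0. In the library with the highest sum, replicate 3 labelled WOX5:GFP, XCP1 alone was at 8.42 FPKM. Phloem markers summed to 0.234, 0.336 and 0.403 FPKM in CYCD6:GFP libraries, within the 0.113 to 0.833 FPKM of those labelled FEZ:FEZ-GFP and below the 1.04 to 2.53 FPKM of the other 6. Epidermis and root hair markers were at 31.6, 74.7 and 55.1 FPKM, against 33.8 to 99.96 FPKM in the other libraries, so that replicate 1 lay just below their range. Most of that sum was PRP3, a proline-rich wall protein gene of root hairs, at 17.0, 49.5 and 31.2 FPKM in CYCD6:GFP libraries and 9.76 to 75.0 FPKM in the others. Root hair transcripts were thus present in all 12 libraries, and their part in the comparisons was not tested. A pair of epidermal regulators, chosen after their values were seen, diverged without a call: WER, a MYB factor of the non-hair fate, stood at 0, 1.24 and 0 FPKM in CYCD6:GFP libraries and 0 to 6.27 FPKM in the others (log2 difference -1.72, limma adjusted p = 0.117), and GL2, which acts downstream of it, at 7.06, 4.66 and 2.26 FPKM against 0.401 to 5.26 FPKM (log2 difference 0.84, limma adjusted p = 0.439).

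Cell wall digestion and sorting provoke stress transcripts, so a list of such genes was examined. Of 9 tested genes 1, TCH4, was called lower and none higher, beside 0.2% and 0% of all tested genes. The median log2 difference was -0.73, beside -0.10 for all tested genes, and 8 of the 9 lay below 0, beside 59.3%. DREB2A, a drought and heat response factor and the most abundant of them, was at 114, 136 and 272 FPKM in CYCD6:GFP libraries and at 89.8 to 283 FPKM in the others, so the CYCD6:GFP values lay within the range of the others. ZAT12, a zinc finger factor of oxidative stress, was at 33.9, 27.3 and 34.3 FPKM in CYCD6:GFP libraries, 26.1 to 38.9 FPKM in those labelled WOX5:GFP and 55.3 to 117 FPKM in the other 6, and its log2 difference of -0.75 was not called (limma adjusted p = 0.497). WRKY40 was at 5.49, 3.39 and 15.3 FPKM against 5.91 to 69.7 FPKM. The summed stress list was 171, 193 and 352 FPKM in CYCD6:GFP libraries and 156 to 433 FPKM in the others. TCH4 is itself a touch-induced gene, and the part of handling in its difference was not tested.

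Of 91 genes that the study predicted as direct TCX2 targets, 77 were tested and none was called in either direction. Over all tested genes 0.2% were called lower and 0% higher. The median log2 difference of the targets was -0.34, and 62 of the 77 lay below 0, beside 59.3% of all tested genes. Their median turned to 0.15 without CYCD6:GFP replicate 1 and was -0.65 without replicate 3. The most abundant were ribosomal protein genes, led by emb2386, which encodes a protein of the large subunit and stood at 26.96, 93.6 and 199 FPKM in CYCD6:GFP replicates 1, 2 and 3 (log2 difference -0.15 ± 0.49, limma adjusted p = 0.960). The summed targets were at 265, 874 and 1329 FPKM in CYCD6:GFP libraries and at 461 to 1291 FPKM in the other 9, so the spread between the replicates of this population was wider than that among the other 9 libraries.

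Upstream sequences of the called genes were searched for motifs of cell cycle genes on both strands of the 250 bases before each annotated start. TTTGAA or TTCGAA, the letters of a cell cycle homology region bound by CXC-domain proteins, was found upstream of 8 of 19 called nuclear genes (42.1%), beside 43.4% of tested genes and 43.5% of all 26702 promoters. AACGGT, the core of the mitosis-specific activator element, was found upstream of 2 of 19 (10.5%), beside 9.0% of tested genes and 8.19% of all, and TTTCCCGC or TTTGGCGC, the letters of E2F sites, upstream of 0 of 19, beside 0.89% of tested genes and 0.96% of all. The shares of called genes were thus close to the background. Of the 7 genes that lay below all other libraries, only MYB77 held any of these letters, of 2 kinds, and FLA8, which was called under 20 of 22 alternative settings, held none. Both are shown, FLA8 from chr2:18744323-18744572 and MYB77 from chr3:18559327-18559576 (TAIR10.1, both minus strand, from the RefSeq assembly), with capitals at TTTGAA and AACGGT, which read here as their reverse complements.
FLA8 upstream: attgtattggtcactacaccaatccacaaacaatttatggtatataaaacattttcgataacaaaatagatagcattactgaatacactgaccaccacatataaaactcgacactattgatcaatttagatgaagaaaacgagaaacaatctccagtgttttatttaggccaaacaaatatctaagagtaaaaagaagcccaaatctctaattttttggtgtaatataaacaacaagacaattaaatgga
MYB77 upstream: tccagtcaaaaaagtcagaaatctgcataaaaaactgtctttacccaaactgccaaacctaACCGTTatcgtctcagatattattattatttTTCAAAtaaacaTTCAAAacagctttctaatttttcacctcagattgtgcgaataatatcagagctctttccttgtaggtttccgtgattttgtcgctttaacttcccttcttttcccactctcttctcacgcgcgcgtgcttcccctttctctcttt
A match of letters is a description and not a binding site.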

How the data were processed

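RNA of GFP-positive cells, sorted after protoplasting of root tips from 5-day-old tcx2 seedlings, was sequenced in 12 libraries with 100 bp single-end reads. The authors deposited FPKM, scaled to transcript length and mapped reads, for each sorted library and 1 FPKM value per genotype for root tips. The submitters' processing notes name Bowtie2, Cufflinks, edgeR and TAIR10, with versions not given in the sources used here. No read counts or library totals were used, so depth is unknown and no counting error can be given. The FPKM values held ribosomal RNA, mitochondrial and plastid genes, so a shift in these moves the values of all others.

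A gene was tested when 3 or more libraries had 1 FPKM or more (9979 of 33560). The filter keeps genes that are high in 1 population only. log2(FPKM + 1) was fitted over all 12 libraries with limma 3.58.1 in R 4.3.3, with a mean per population and an intensity trend, and CYCD6:GFP was set against the mean of the 3 remaining populations and against each of them. On this scale the change of a low gene is understated. Tests were two-sided, with Benjamini-Hochberg adjustment over all tested genes, an adjusted p under 0.05 and a fold change over 2. The study used a count-based test, which FPKM do not allow. P-values measure only the spread between these libraries. CYCD6;1 and TCX2 were too low for this fit and had exact permutation tests. Gene lists were described without a test. Named genes were the reporter genes and TCX2, all called genes, the 10 largest uncalled differences with all 3 values above the 9 others, and in each list the called members and up to 4 tested members of highest mean FPKM. The rule for lists was not kept throughout. Other members were named too, such as SCR, MGP, CO2, WER, GL2 and HTA10. CYCA3;2 (log2 difference -0.55) and MCM5 (-0.48) were left out despite their level. Members and lists were chosen with earlier results of these data known. Names, positions and sequences came from RefSeq TAIR10.1, which annotated 32826 of 33560 genes. On simulated data for this contrast over 9979 genes, 3.7% of genes changed by 1 on the log2 scale were recovered, 73.2% of those changed by 2 and 93.7% of those changed by 3. Python 3.11.15 with numpy 2.4.6, pandas 2.3.3 and matplotlib 3.10.9 served for tables and plots.

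Alternatives were other pseudocounts (0.1 and 5), filters, scalings and variance models, a replicate block and leaving out each library. Medians of the gene lists under these settings were added after the data were seen.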

Additional observations from a re-analysis of the deposited data

How the results depend on the processing

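The count of 20 lower genes moved with most choices, while 0 genes stayed higher in most. With a pseudocount of 0.1 it was 60 and with 5 it was 4. Without a filter it was 0 over 28571 genes (limma, 377 lower and 71 higher by the unadjusted rule), and with at least 5 FPKM it was 10 over 2655 genes. After median centring it was 12, which moved the median of all genes to 0.03, and after rescaling to nuclear genes without ribosomal RNA it was 31, with 5 higher. Array weights gave 717 lower and 200 higher genes, at a weight of 5.65 for CYCD6:GFP replicate 2, beside 0.53 and 0.29 for replicates 1 and 3. Leaving out each library in turn gave 0 to 46 lower and 0 to 1 higher genes, lowest without CYCD6:GFP replicate 2 (limma, 423 lower and 125 higher by the unadjusted rule) and highest without replicate 3 labelled TMO5:3xGFP. It was also 12 without replicate 2 labelled TMO5:3xGFP and 11 without replicate 3 labelled WOX5:GFP. The cause of these moves was not tested. None of the 30 refitted genes, the 20 called and the 10 higher ones, changed direction, and single list members were not refitted. Of the 20, FLA8 was called under most alternatives (20 of 22, limma adjusted p from 5.08e-06 to 0.165) and ENODL16 and MYB77 under fewest (5 of 22 and 5 of 21). Of 12 list medians 7 kept their sign. Those of cortex markers, cyclin-kinase inhibitors, predicted targets and ribosomal proteins did not, nor did that of epidermis and root hair markers, which was -0.27 and turned to 0.13 without CYCD6:GFP replicate 1. CYCD6;1 in CYCD6:GFP libraries changed sign after median centring, to 0.0539 (exact permutation p = 0.755), as zeros are shifted with their library. Same-numbered libraries were not treated as pairs in the main fit. Their deviations correlated at -0.19 to 0.17 over 18 pairs, and the 2 highest values, 0.17 and 0.13, joined CYCD6:GFP and WOX5:GFP libraries. With 3 replicates a population, such values cannot show that no pairing existed. With a replicate block 15 genes were lower, 14 of them among the 20. Unknown depth limits what can be said of genes near 0.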

Other observations

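Genes of the organelle genomes were also measured. Of 119 tested genes of the mitochondrial genome, 1, ATMG00150, was called lower in CYCD6:GFP cells and none higher. Over all tested genes 0.2% were called lower and 0% higher. Of the 119, 111 lay below 0, beside 59.3% of all tested genes, at a median log2 difference of -0.49. The summed mitochondrial FPKM was 45929, 48120 and 32775 in CYCD6:GFP libraries, against 46471 to 72445 in those labelled FEZ:FEZ-GFP, 27566 to 52968 in those labelled TMO5:3xGFP and 47981 to 60535 in those labelled WOX5:GFP. Of 83 tested plastid genes none was called and 72 lay below 0, beside the same 59.3%, at a median of -0.49. Their summed FPKM was 4533, 3931 and 3169 in CYCD6:GFP libraries and 3568 to 7848 in the other 9.

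Nuclear ribosomal protein genes varied widely among the CYCD6:GFP replicates. Of 279 tested genes none was called, at a median log2 difference of -0.23, which turned to 0.32 without CYCD6:GFP replicate 1 and was -0.59 without replicate 3. Their summed FPKM was 958, 3143 and 5044 in CYCD6:GFP replicates 1, 2 and 3, and 1533 to 4771 in the other 9 libraries. The sum over all nuclear genes without ribosomal RNA was 40428, 60848 and 89046 FPKM in the same 3 replicates, a narrower spread. Across tested genes, which are not independent replicates, the mean Pearson correlation of CYCD6:GFP libraries was 0.789 with each other, 0.798 with those labelled WOX5:GFP, 0.752 with those labelled FEZ:FEZ-GFP and 0.689 with those labelled TMO5:3xGFP.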
